A study of Mus musculus with 2 samples.

Results

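The cathepsins are the proteases of the lysosome, the acidic compartment in which cells break down proteins taken up from outside and worn-out parts of their own. Most of them are cysteine proteases of the papain family, which are made as inactive precursors, sorted to the lysosome by mannose 6-phosphate receptors and activated by the low pH there. Ctsd is an aspartic protease and Ctsa a serine carboxypeptidase. In the lens, lysosomes take part in the turnover of epithelial cells and of fibre cells before these lose their organelles, while macrophages of the eye rely on cathepsins to degrade engulfed material and to process antigens.

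The cathepsins studied here were Ctsa, Ctsb, Ctsc, Ctsd, Ctsf, Ctsh, Ctsk, Ctsl, Ctss and Ctsz. All non-control probes that the array files assign to these 10 genes were taken, which gave 16 of 41174 probes, with 4 genes represented by more than 1 probe and 6 by a single probe. Each probe was printed in 1 spot per array. The members were chosen with earlier results of these data known.

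RNA came from the lenses of mice at postnatal day 1. One sample was from mice with a conditional knockout (CKO) of the homeobox transcription factor gene Msx2, deleted with Le-Cre, a transgene that drives Cre recombinase in the lens lineage, and the other from Msx2 wild-type mice, for which the labels do not state whether Le-Cre was present. Each genotype had 1 one-colour array, so the differences below have no replicate check and no p-value across animals exists, and the sources used here do not state how many animals went into a sample. The comparison asks how gene expression in the lens differs when Msx2 is deleted. Because whole lenses were used, more cells of a type and more RNA per cell cannot be told apart.

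Across each array 55.1% (CKO) and 54.2% (wild type) of probes were well above background, and 0 non-control spots were saturated. A probe was called measured when it was well above background on both arrays, which held for 21010 probes. The Msx2 probe, the check of the labels, gave a processed signal of 4.40 (CKO) and 371 (wild type) intensity units, where 0 and 10 of its 10 spots were well above background, a level at least 22.1-fold lower in CKO. The sources used here do not say if this probe lies within the deletion. All 12 lens fibre markers, such as Mip, Lim2 and Cryaa, and all 8 lens epithelium markers were well above background in both samples, as the tissue label states.

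The probes that carry the differences are shown with their target positions (mm9, as the files give them). The Ctsk probe and one Ctsd probe cover more of the genome than their own 60 bases and so cross a splice junction, and these are printed whole. Of the others the first 30 bases are printed, and whether they fall in coding sequence was not determined. Letters are in lower case, 5′ to 3′ as the files list them.
Ctss, A_51_P423981, chr3:95360162-95360221, plus strand: ttgcctgcaatatccagaggaaccaagtgt
Ctsk, A_51_P448236, chr3:95310647-95310891, plus strand: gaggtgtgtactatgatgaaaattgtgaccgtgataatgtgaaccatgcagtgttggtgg
Ctsh, A_52_P51078, chr9:89970828-89970887, plus strand: acctagaatcgtctctctttccagctctct
Ctsb, A_51_P465148, chr14:63761906-63761965, plus strand: ttaccacttaaccctgtagtttaacaagga
Ctsb, A_52_P433889, chr14:63764131-63764190, plus strand: acgcagcaggcttaagaggggagcagacta
Ctsd, A_52_P35960, chr7:149562628-149562781, minus strand: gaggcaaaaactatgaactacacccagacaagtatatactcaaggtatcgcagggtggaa

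Of the 16 cathepsin probes, 13 probes of 9 genes were measured. A further 2 passed the background mark in CKO but not in wild type, beside 1692 of all 41174 probes, and 1 was below it on both arrays. Among the measured probes the widest gaps were those of Ctss and Ctsh, 43.2-fold and 3.53-fold higher in the CKO lens, while Ctsk and the dimmer Ctsb probe, detected in CKO only, have no upper limit to their fold. Those 2 of 13 measured probes were at least 2-fold higher, beside 3.85% of all measured probes, and 0 of 13 were at least 2-fold lower, beside 3.20%. Over all probes past 2-fold 54.6% were higher in CKO, and with median scaling 39.4%. The remaining 11 measured probes differed by less than 2-fold. The median log2 difference of the 13 probes was 0.39, beside -0.05 over all measured probes, and without the Ctss and Ctsh probes it was 0.38 over 11.

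In 7 genes every measured probe was above 0 on the log2 scale (Ctsa, Ctsb, Ctsc, Ctsd, Ctsh, Ctss and Ctsz), and in 2 genes, Ctsf and Ctsl, the single measured probe was below 0. Among all measured probes 45.0% were above 0, and among the cathepsin probes 11 of 13. The scanner software attaches an error to each spot, which for these probes comes to a standard error of 0.20 to 0.34 for a log2 difference and covers the reading of the spot, not the spread between animals. The differences of 7 of the 13 probes were smaller than 2 of these standard errors. Between repeated spots of 126 other probes the log2 difference had a pooled SD of 0.23, and 3 of the 13 cathepsin differences were smaller than that.

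**Figure D1:**
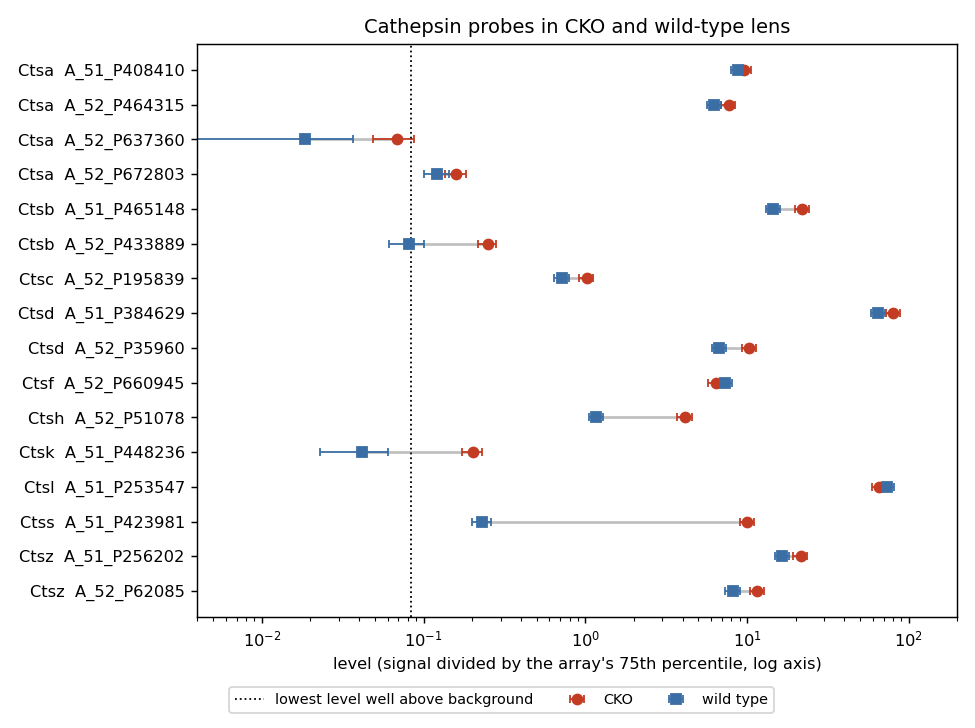
Level of each of the 16 cathepsin probes in the CKO (circles) and wild-type (squares) sample, as the processed signal divided by the array's 75th percentile, on a log axis. Bars are the scanner software's error, cut at the edge for the dimmest value, and the dotted line is the lowest level that was well above background. Ctss spans the widest gap, from 0.231 in wild type to 10.01 in CKO, and Ctsl and Ctsf are the only measured genes with the wild-type value on the right.

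The endopeptidases of the papain family, which cut within a protein chain, held both the highest and the lowest differences. Ctss encodes cathepsin S, an endopeptidase of macrophages, dendritic cells and B cells that trims the invariant chain from MHC class II molecules. Its probe gave 1962 ± 196 in CKO and 46.0 ± 6.22 in wild type (intensity units, ± the scanner software's error, as for all signals below). The wild-type signal was low, though above the dimmest detected signal of that array, 16.6. The log2 difference was 5.43 with a scanner standard error of 0.24, rank 1 of the 21010 measured probes. That ranking leaves out probes seen in CKO only, such as that of the stromal marker Dcn, at least 352-fold higher. With normexp, another background correction that adds an offset of 50 to every spot, the log2 difference of Ctss was 4.14, or 17.7-fold. Under the other alternatives it was lowest with median scaling (5.32) and highest with intensity-dependent centring (45.3-fold).

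Ctsk encodes cathepsin K, the collagen-degrading protease by which osteoclasts resorb bone and which fibroblasts also make. Its probe gave 39.5 ± 5.47 in CKO and 8.28 ± 3.74 in wild type, where it was not well above background. Its level was therefore at least 2.42-fold higher in CKO. Among all probes well above background in CKO only, 30.9% had an at-least fold of 2 or more. With normexp the bound for Ctsk fell to 1.39-fold, below the 2-fold mark.

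Ctsl encodes cathepsin L, an endopeptidase that is broadly expressed. Its probe (chr13:64465287-64465346, minus strand) gave 12883 ± 1288 in CKO and 14639 ± 1464 in wild type, a log2 difference of -0.16 (scanner standard error 0.20). The sign turned in the deposited log2 table (0.023), after quantile normalization (0.028) and after intensity-dependent centring (0.057), so the direction of Ctsl depended on the scaling. The probe lies 10.9 Mb from that of Msx2 on chromosome 13. Ctsf, another widely expressed papain-type protease, gave 1257 ± 126 in CKO and 1464 ± 146 in wild type at chr19:4860454-4860513, a log2 difference of -0.20, and stayed between -0.31 and -0.09 over 8 alternatives. Neither difference exceeded its scanner standard error of 0.20.

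The exopeptidases, which remove residues from the ends of a chain, were all higher in CKO by the measured probes, by log2 differences from 0.38 to 1.82. Ctsh encodes cathepsin H, an aminopeptidase of lung, kidney and phagocytes. Its probe gave 810 ± 81.0 in CKO and 232 ± 23.5 in wild type, a log2 difference of 1.82 (scanner standard error 0.21). Over 8 alternatives the Ctsh difference ran from 1.59 to 1.90, always past 3-fold. Only 0.923% of all measured probes had a larger difference.

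Ctsb encodes cathepsin B, which acts as an endopeptidase and as a dipeptidyl carboxypeptidase. Its brighter probe gave 4285 ± 428 in CKO and 2898 ± 290 in wild type, a log2 difference of 0.59. Its other probe gave 48.8 ± 6.17 in CKO and 16.2 ± 3.99 in wild type, where it was not well above background, and so was at least 2.99-fold higher. The files place the brighter probe at base 1888 and the dimmer at base 4113 of the same transcript. Both probes were higher in CKO. The bound of the dimmer one lay above the difference of the brighter one, but not with normexp, where the bound was 0.45 on the log2 scale and the brighter probe differed by 0.53.

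Ctsc encodes cathepsin C, the dipeptidyl peptidase that activates the serine proteases of mast cells, neutrophils and cytotoxic lymphocytes. At chr7:95458436-95458495 it gave 200 ± 20.4 in CKO and 143 ± 14.8 in wild type, a log2 difference of 0.51 (1.42-fold). Ctsz encodes cathepsin Z, also called cathepsin X, a carboxypeptidase. Its probe at chr2:174254084-174254143 gave 2275 ± 228 in CKO and 1627 ± 163 in wild type (log2 difference 0.51), and its probe at chr2:174253228-174253287 gave 4211 ± 421 and 3276 ± 328 (0.38). Both Ctsz probes were higher in CKO, with a range of 0.12 between them.

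The aspartic and serine enzymes differed by at most 0.61 on the log2 scale. Ctsd encodes cathepsin D, the main aspartic protease of lysosomes. Its junction probe gave 2016 ± 202 in CKO and 1336 ± 134 in wild type (log2 difference 0.61), and its probe at chr7:149561962-149562021 gave 15688 ± 1569 and 12915 ± 1292 (0.30). The pair lay 0.31 apart. Each difference had a scanner standard error of 0.20, and the error of the gap between them was not computed.

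Ctsa encodes cathepsin A, also called protective protein, which holds beta-galactosidase (Glb1) and neuraminidase (Neu1) together in a lysosomal complex. It had 4 probes, of which 3 were measured, all with a small excess in CKO. At chr2:164664388-164664447 the signals were 1508 ± 151 in CKO and 1245 ± 125 in wild type (log2 difference 0.30). At chr2:164664789-164664848 they were 1884 ± 188 and 1762 ± 176 (0.12). At chr2:164666433-164666492 they were 31.3 ± 4.74 and 24.3 ± 4.28 (0.39).

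None of the measured Ctsa differences was larger than 2 scanner standard errors. The remaining Ctsa probe, at chr2:164659791-164659850, was not well above background in either sample (13.4 and 3.67) and gives no fold. Both partners of the complex differed by less than 2-fold, Glb1 by 0.48 and Neu1 by -0.03 for its brightest probe and 0.46 for its other one.

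**Figure D2:**
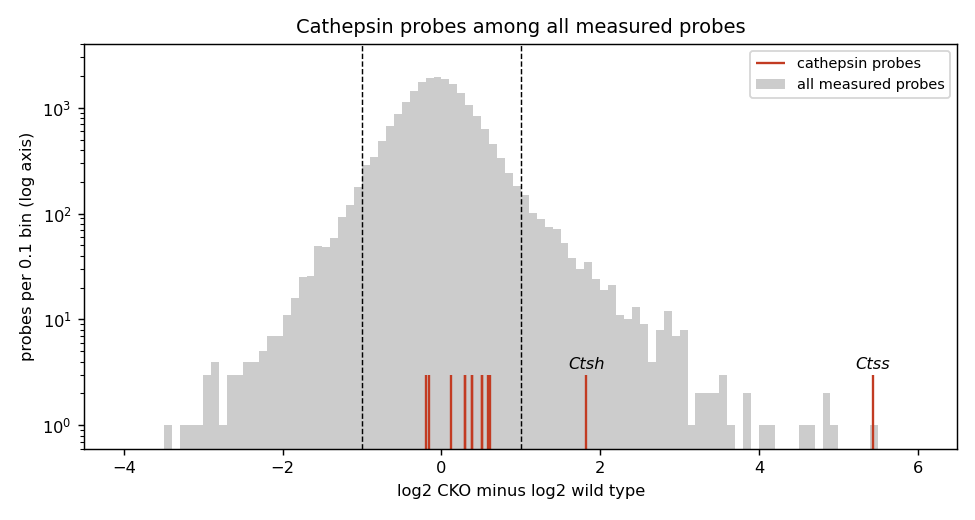
Log2 difference of the 13 measured cathepsin probes (red lines) over the distribution of all 21010 measured probes (grey bars, probes per bin of 0.1, log axis), with 2-fold marked by dashed lines. Ctss lies at the right end at 5.43, Ctsh at 1.82, and the other 11 lie between -0.20 and 0.61.

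The genes of the CKO-only Ctsk signal and of the Ctss signal are neighbours. Their probes lie 49.3 kb apart on chromosome 3 (mm9), and the RefSeq gene table (GRCm38.p6) places 0 protein-coding genes between them. Among the probes of the genes on either side, no measured one passed 2-fold, and the gene next to Ctss gave no fold. Arnt, a partner of the hypoxia and dioxin receptors next to Ctsk, had 3 measured probes with log2 differences of 0.03, 0.19 and 0.21. Another Arnt probe was seen in CKO only, 1.46-fold higher as the ratio of the scaled levels. Hormad1, a meiotic gene next to Ctss, had a pair of probes, both below the background mark in both samples.

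The bases before the start of these neighbours, and of Ctsd, are printed because Ctss and Ctsk were both higher in CKO and Ctsd holds the lysosomal motif described next. The RefSeq promoter table (GRCm38.p6) held 9 promoters of 8 members, with no entry for Ctsb and Ctsh. The windows are the 250 bases before the annotated start, on the strand of the gene, with motif matches in capitals.
Ctss, chr3:95526536-95526785, plus strand: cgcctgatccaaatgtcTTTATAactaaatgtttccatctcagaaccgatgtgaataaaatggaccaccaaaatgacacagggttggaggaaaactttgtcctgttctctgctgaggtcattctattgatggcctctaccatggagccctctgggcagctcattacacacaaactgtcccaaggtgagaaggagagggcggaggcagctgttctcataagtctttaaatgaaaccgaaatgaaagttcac
Ctsk, chr3:95498960-95499209, plus strand: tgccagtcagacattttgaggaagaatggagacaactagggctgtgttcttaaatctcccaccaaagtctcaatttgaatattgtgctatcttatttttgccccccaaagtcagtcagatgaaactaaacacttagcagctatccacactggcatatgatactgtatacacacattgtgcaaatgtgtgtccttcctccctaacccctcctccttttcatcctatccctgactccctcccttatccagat
Ctsd, chr7:142387828-142388077, minus strand: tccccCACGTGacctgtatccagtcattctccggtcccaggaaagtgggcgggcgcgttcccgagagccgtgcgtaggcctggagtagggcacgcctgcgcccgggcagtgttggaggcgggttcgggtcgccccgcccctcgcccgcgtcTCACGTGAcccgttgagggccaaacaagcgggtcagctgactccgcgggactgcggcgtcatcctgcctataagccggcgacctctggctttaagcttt

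In all 7 motifs were searched, on both strands. The E-box CACGTG was in the promoters of 4 members, Ctsa, Ctsd, Ctsf and Ctsl, and in 6.02% of all 32851 promoters of the same length. The longer TCACGTGA, the core of the element bound by the lysosomal regulator TFEB and a match that includes the E-box, was in those of Ctsa and Ctsd and in 0.785% of all promoters. It starts 99 bases before the start of Ctsd and 13 before that of Ctsa.

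Neither CACGTG form was in the windows of Ctss, Ctsk, Ctsc or Ctsz. GAGGAAGT, a form of the PU.1 site, matched in Ctsc (2.44% of all promoters), and TATAAA in Ctss, 233 bases before the start (12.4%). CCGGAAGT (an Ets site), TGANTCA (an AP-1 site) and TAATTG, the core of the homeodomain site that Msx proteins bind, were in 0 of 9 member promoters and in 2.88%, 6.75% and 7.17% of all. The Ctss and Ctsk windows held 4 and 0 CpG pairs, and that of Ctsd 27.

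Other cathepsin genes gave little signal. Of 13 further cathepsin genes, 1 was measured, Ctso, with signals of 70.5 (CKO) and 56.0 (wild type) intensity units (log2 difference 0.36). The 9 genes of the placental cathepsin cluster and its relatives, such as Ctsj, Ctsm and Ctsq, were below the background mark in both samples, with signals from 3.39 to 12.2. Ctsg, the neutrophil and mast cell protease cathepsin G, and Ctsw, the cathepsin of cytotoxic lymphocytes, were seen in CKO only, by at least 1.15-fold and 1.55-fold, and Ctse, an aspartic protease, in wild type only, by at least 1.65-fold. None of these bounds reached 2-fold.

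Cathepsin inhibitors and their relatives, the fetuins among them, had 6 measured members of 21. Past 2-fold were 3 in the direction of CKO and 0 in that of wild type, beside 4.32% and 3.57% of all measured genes. Ahsg, fetuin A, a blood protein of the cystatin superfamily, was 6.32-fold higher. Ctla2a and Ctla2b, which resemble cathepsin propeptides and inhibit papain-type enzymes, were 2.89-fold and 2.93-fold higher, and since they are close copies of each other their probes may not be separable. Cystatin C (Cst3), the abundant secreted inhibitor, differed by only 0.17 on the log2 scale, with signals of 10448 (CKO) and 9436 (wild type) intensity units, and cystatin B (Cstb), the inhibitor inside cells, by 0.87. Fetub, another fetuin, was seen in CKO only, beside 35.7% of such genes past 2-fold. It was 2.07-fold higher as the ratio of the scaled levels, with a scanner standard error of 0.39 on the log2 scale. Stfa1, a stefin, was seen in wild type only, at least 3.41-fold lower in CKO, beside 23.3%.

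The machinery that delivers cathepsins was mostly within 2-fold. Of 10 measured sorting genes 1 was at least 2-fold higher and 0 lower. That gene was Igf2r, the large mannose 6-phosphate receptor, with signals of 3959 (CKO) and 1359 (wild type) intensity units (2.96-fold), while M6pr, the small receptor, differed by 0.44 on the log2 scale and Sort1, sortilin, by -0.73. Of 8 measured regulators of lysosomal genes 0 passed 2-fold either way: Tfeb differed by 0.32, Tfe3 by 0.35, Flcn by 0.57 and Mitf by -0.87. The list medians were -0.08 and 0.10, beside -0.09 over all measured genes.

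Other lysosomal hydrolases had a median log2 difference of 0.01 over 31 measured genes, and past 2-fold were 1 higher and 0 lower. That gene was Arsa, arylsulfatase A, 2.24-fold higher, a call that normexp removed. Acp5, the tartrate-resistant phosphatase of macrophages and osteoclasts, was seen in CKO only, at least 4.09-fold higher. Lgmn, legumain, which cleaves cathepsin precursors, was lower by 0.82 on the log2 scale, under 2-fold.

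Lysosomal activators, carriers and membrane proteins had a median of 0.45 over 16 measured genes, and 1 passed 2-fold upward and 0 downward. The gene was Grn, progranulin (2.09-fold), but its other probe differed by -0.59, and no gene of this list passed with median scaling. Among the same genes Psap, the precursor of the saposins, differed by 0.70 and Lamp1 by 0.05. Subunits of the V-ATPase, the proton pump that acidifies the lysosome, had a median of 0.29 over 17 measured genes. Past 2-fold was 1 gene, Tcirg1, with a log2 difference of 1.63, against 0 lower, and with normexp 0 passed. Next came Atp6v0a1 at 0.65. Tcirg1 encodes the a3 subunit of osteoclasts and macrophages.

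Genes whose products cathepsin S acts with differed in the same direction as Ctss, apart from one. Of 6 class II and invariant chain genes, 5 were seen in CKO only, beside 1692 of all 41174 probes. Of all genes seen in CKO only, 35.7% had an at-least fold of 2 or more. Cd74, the invariant chain, had signals of 453 (CKO) and 17.5 (wild type) intensity units, 26.3-fold higher as the ratio of the scaled levels. H2-Ab1 and H2-DMb1 were at least 10.04-fold and 6.24-fold higher. The exception was H2-Eb1, with 511 in CKO and 1060 in wild type, 2.04-fold lower, a call lost in the deposited table, with normexp, after intensity-dependent centring, after quantile normalization and when scaled by detected probes alone. Of the collagen genes whose product cathepsin K degrades, Col1a1 was seen in CKO only, at least 14.7-fold higher, and Col1a2 was measured, 7.23-fold higher.

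Markers of other cells that may come along with a lens differed between the samples too. Of 16 macrophage markers 15 were well above background in CKO and 9 in wild type, with a summed level of 32.4 and 6.32 times the arrays' 75th percentile. Of 8 measured ones 6 were at least 2-fold higher and 0 lower, or 5 higher with normexp. Among the 6 were Trem2 (24.0-fold), Tyrobp (16.9-fold) and Lyz2 (7.68-fold). C1qc and Adgre1 were seen in CKO only, C1qc 49.8-fold higher as the ratio of the scaled levels and Adgre1 at least 17.8-fold higher. The markers C1qb and Cd14 differed by 0.02 and 0.37 on the log2 scale, and Itgam was seen in wild type only. Their part in the Ctss, Ctsh and Ctsb values was not tested.

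Beside Ctsk, the osteoclast list differed in both directions, with 6 of 10 markers well above background in CKO and 5 in wild type, and summed levels of 2.09 and 2.30. Acp5 and Dcstamp were seen in CKO only, at least 4.09-fold and 1.71-fold higher, and Tnfrsf11a, the receptor RANK, in wild type only, at least 4.51-fold lower in CKO. Of 4 measured members 0 passed 2-fold either way (Oscar, 1.99-fold lower, did so with median scaling, quantile normalization, the deposited table and the percentile over spots), and Calcr, Mmp9 and Atp6v0d2 were below the background mark in both samples. Stromal fibroblast markers had 9 of 10 well above background in CKO and 6 in wild type, with summed levels of 64.9 and 7.08. Of 6 measured 4 passed 2-fold upward and 0 downward, and Dcn and Lum were seen in CKO only, at least 352-fold and 54.3-fold higher. Pdgfra and Fbln1 each differed by -0.05 on the log2 scale for their brightest probe, and Kera was below the mark in both. The other Fbln1 probe differed by 1.04, past 2-fold higher, and the other Pdgfra probe by -0.24. The part of osteoclasts and fibroblasts in the Ctsk value was not tested.

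Beside Ctsc and Ctsg stand the mast cell markers Mcpt4, Cpa3, Cma1 and Kit, of which 4 of 4 were seen in CKO only, at least 19.7-fold, 11.2-fold, 17.2-fold and 1.79-fold higher. Over the whole array 1692 of 41174 probes were seen in CKO only, and 35.7% of such genes had an at-least fold of 2 or more. Of the neutrophil markers, Mpo gave 561 in CKO and 1055 in wild type (log2 difference -0.89, past 2-fold lower with median scaling), Ltf differed by 0.14, and S100a8, S100a9 and Elane were below the mark in both samples. Over the whole list of neutrophil and mast cell markers 6 of 9 with a probe were well above background in CKO and 2 in wild type, with summed levels of 8.37 and 6.73. The granzyme genes Gzma and Gzmb, substrates of cathepsin C, were below the mark in both. The part of these cells in the Ctsc value was not tested.

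Dendritic and B cell markers had 4 of 9 well above background in each sample, with summed levels of 2.02 and 1.09. Of these Cd79a was measured and 2.85-fold higher (under 2-fold with normexp), Itgax was seen in CKO only (at least 11.4-fold higher) and Ms4a1 in wild type only (at least 3.90-fold lower), with Flt3 and Clec9a among those below the mark in both. Endothelial markers had 10 of 10 in CKO and 9 in wild type, with summed levels of 29.3 and 9.42. Of 9 measured, 8 were past 2-fold upward and 0 downward, or 4 with normexp, led by Vwf (4.51-fold) and Tie1 (3.92-fold).

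Pigment cell markers had 5 of 7 in CKO and 3 in wild type, with summed levels of 3.84 and 0.975. All 3 measured ones were past 2-fold upward (Dct 10.9-fold, Trpm1 3.06-fold and Pmel 2.89-fold), or 2 with normexp. Mlana and Tyrp1 were seen in CKO only, at least 2.64-fold and 2.34-fold higher, and Tyr and Slc45a2 were below the mark in both. Pericyte markers had 6 of 7 in each sample, with summed levels of 29.6 and 26.0. Of 6 measured, 2 were past 2-fold upward and 0 downward, Cspg4 (2.92-fold) and Rgs5 (2.48-fold), or 1 with normexp. Acta2 was not counted, at -0.04 on the log2 scale for its brightest probe, but its 3 probes ran up to 1.46. In the other direction, lens fibre markers had 3 of 12 at least 2-fold lower and 0 higher. These were Lgsn (4.54-fold), Birc7 (2.61-fold) and Dnase2b (2.08-fold). The lower count was 2 with normexp, quantile normalization, intensity-dependent centring, scaling by detected probes and the deposited table. Lens epithelium markers had 1 of 8 higher (Pdpn, under 2-fold with normexp or median scaling) and 0 lower. Red cell markers had 4 of 6 with a probe well above background in each sample and summed levels of 32.9 and 36.2. Of 4 measured, 0 were past 2-fold upward and 1 downward, Slc4a1 (2.05-fold lower, under 2-fold with normexp or scaling by detected probes). The part of these cells in the cathepsin values was not tested.

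**Figure D3:**
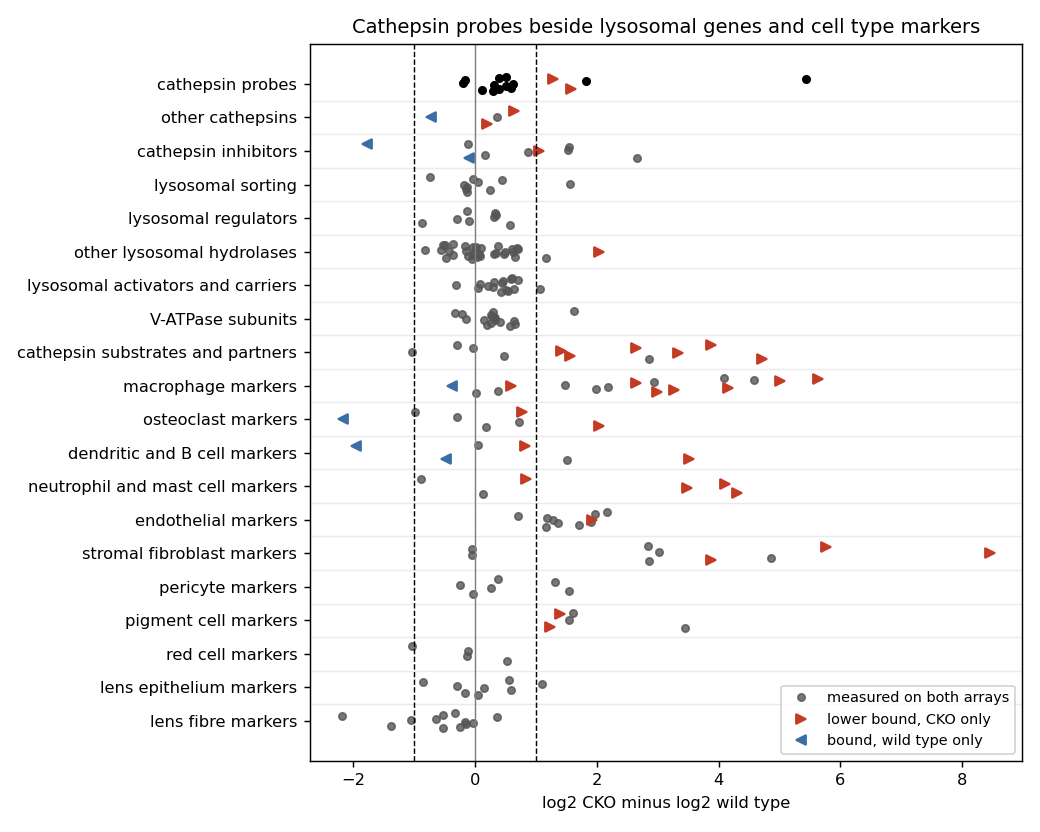
Log2 difference (CKO minus wild type) of the cathepsin probes in the top row and of the genes of 19 lists below, 1 point per measured gene, with triangles at the bound of probes or genes well above background in 1 sample only and 2-fold marked by dashed lines. Most lysosomal genes lie within 2-fold, as do 11 of the 13 measured cathepsin probes, and the macrophage, endothelial and stromal markers extend to the right.

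The genes whose pair of levels lay nearest that of Ctss were Gdf15, a stress-induced cytokine, Il4, interleukin 4, and Mt2, a metallothionein. From the 14220 measured genes, the cathepsins studied and genes with only a predicted-gene, clone or accession-type name were left out of this ranking. Over 2 arrays, the distances of Gdf15, Il4 and Mt2 from Ctss in the plane of the log2 levels were 0.61, 1.02 and 1.19. These genes were 29.4-fold, 17.5-fold and 14.6-fold higher in CKO. With only 2 arrays this likeness is one of size alone.

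**Figure D4:**
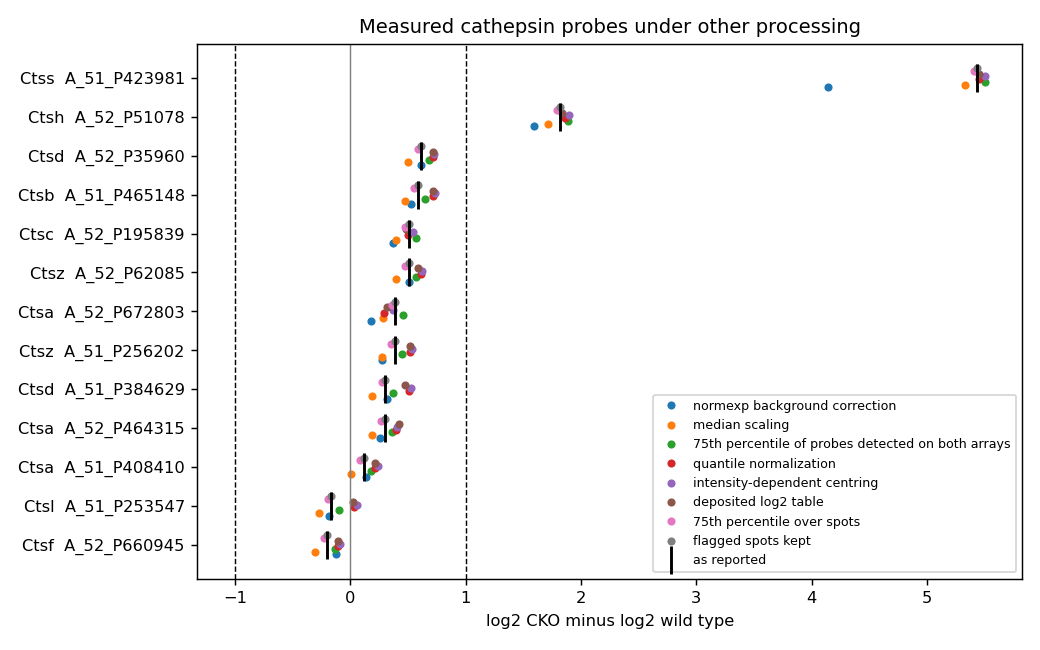
Log2 difference of the 13 measured cathepsin probes as reported (black bars) and under 8 other ways of processing (coloured points), with 2-fold marked by dashed lines. Ctss and Ctsh stay beyond 2-fold under every setting shown, Ctss moves from 5.43 to 4.14 with normexp, and Ctsl crosses 0.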

How the data were processed

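Lens RNA of 1 CKO and 1 wild-type sample was hybridised to Agilent design 014868 in 1 channel. Per the file headers, the authors' scanner files hold spot intensity on a linear scale from Feature Extraction 10.7.3.1 (protocol GE1_107_Sep09), background-subtracted and detrended within the array but not normalized between arrays, with probe positions in mm9. The authors also deposited log2 values, with sorted columns nearly identical between the arrays, whose scale and shift are not given in the sources used here. Their columns correlate with the log2 scanner signal at r = 0.9996 and 0.9998, their differences run the same way (r = 0.990), and both medians are 4.87.

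Control spots and flagged spots (127 and 168 population outliers, 0 and 1 non-uniform) were left out. Spots of a probe were averaged as log2, and the array's 75th percentile over probes (196 and 199 intensity units) was subtracted. A probe counted as well above background if over 50% of its spots carried that mark, and measured when this held, without saturation, on both arrays (21010 probes). A probe so marked on 1 array only has an at-least fold against the higher of the other array's lowest marked signal (16.5 in CKO, 16.6 in wild type) and its own signal there. Where its own signal there was the higher, the value is the plain ratio of the scaled levels, and the true fold may be lower. A list gene took its brightest measured probe. Symbols came from RefSeq (GRCm38.p6) by accession for 27760 probes, by symbol for 5531 and by an older symbol for 460, and 7422 kept the file's name. Motifs were chosen after the values were seen.

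With 1 array per genotype no test was made; the number of arrays limits the precision. The members and lists were chosen with earlier results of these data known. Named were all member probes and, per list of pathway genes, up to 4 genes past 2-fold or the 2 with the largest difference, and the 3 genes nearest Ctss; other named genes, cell markers among them, were chosen after their values were seen. Calling was tested on simulated data. Python 3.11.15, numpy 2.4.6, pandas 2.3.3, statsmodels 0.14.6, and limma 3.58.1 in R 4.3.3 (normexp, offset 50) were used.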

Additional observations from a re-analysis of the deposited data

How the results depend on the processing

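The 2 cathepsin probes at least 2-fold higher were also counted under 10 of 13 alternatives. The count was 4 when detection on 1 array sufficed, which admits the Ctsk and dimmer Ctsb probes, 5 with no filter on detection, and 4 at a 1.5-fold threshold. The count at least 2-fold lower was 0 under all 13. The median over cathepsin probes ran from 0.28 (median scaling) to 0.54 (intensity-dependent centring). Of 104 values of single measured probes under 8 alternatives, 100 kept their sign and moved by less than the SD of repeated spots, 3 reversed, also within that SD (Ctsl, 0.023 in the deposited table, 0.028 after quantile normalization and 0.057 after intensity-dependent centring) and 1 moved by more (Ctss, 4.14 with normexp). The 75th percentile over spots was added after seeing the data.

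Over all measured probes 809 were at least 2-fold higher and 672 lower, the higher being 54.6%. With median scaling these were 647 and 994 (39.4%), and the median of all probes went from -0.05 to -0.16, with that of the cathepsin probes 0.44 above it in both cases. With normexp they were 289 and 242. Of 266 list counts under alternatives, 20 moved by over 1.5 times. The lowest detected signals, near 16.5 intensity units, limit the folds of Ctsk and the dimmer Ctsb probe. Wild-type Ctss (46.0) and the dimmest measured Ctsa probe (31.3 in CKO, 24.3 in wild type) were low but well above background. No paired analysis was possible because each genotype has 1 array. The causes of these shifts were not tested.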
